A study of Homo sapiens with 3 samples.

Results

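The centromere and kinetochore genes examined here were a list of 45 genes that code for the proteins of the human centromere, of the inner and outer kinetochore and of the complexes that act there in mitosis. They were found on the arrays through the RefSeq accession of each probe, matched to a current or older symbol. *CENPM*, which the study picked on these arrays, was not analysed here. The other 44 genes were analysed, among 22439 RefSeq symbols with a probe in the tables used. RNA came from A549 cells, a human lung adenocarcinoma line, and was hybridised to 3 Agilent arrays of 1 colour. Of the 3 cultures, the mock received the RNAiMAX transfection reagent alone, while the others received that reagent with *miR-139-5p* or with *miR-139-3p*, each at 10 nM. The arrays addressed which transcripts fall when *miR-139-3p*, the strand of the duplex taken as the passenger, is supplied in excess.

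The centromere is the stretch of each chromosome where nucleosomes carry CENP-A, a variant of histone H3. On it sits the constitutive centromere-associated network (CCAN), which recruits the KNL1, MIS12 and NDC80 complexes that bind spindle microtubules. Many of these genes are known to be transcribed in waves with the cell cycle, highest in G2 and mitosis, so that their RNA is abundant in dividing cell lines. Bulk RNA cannot tell fewer cells in G2 and mitosis from less of each RNA per cell.

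The transfected strands come from opposite arms of 1 hairpin, which RefSeq places in assembly GRCh38.p14 on the minus strand, with *miR-139-3p* at chr11:72615066-72615088 and *miR-139-5p* at chr11:72615102-72615124. They are shown because the comparison is between these strands, with the seed, bases 2 to 8 from the 5′ end, in capitals.
miR-139-3p: uGGAGACGcggcccuguuggagu
miR-139-5p: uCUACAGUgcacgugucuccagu
The seeds differ, reading GGAGACG in *miR-139-3p* and CUACAGU in *miR-139-5p*.

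Each condition had 1 array, so no test could be made and no difference below has a replicate check on these arrays. Slide 1 carried both the mock array and that of *miR-139-5p*, whereas *miR-139-3p* was hybridised on slide 2, so that slide and transfection cannot be told apart for this strand. Each array had 60901 spots other than controls, of which 48.1 to 53.1% were well above background and 0 were saturated. Signals are given as multiples of the 75th percentile of the spots of that array, and a log2 fold change is the difference of log2 signals from the mock array. In lists of signals, the 5p and 3p arrays are those of the strand so named. A difference of 0.5 on the log2 scale serves for counts. Signals of different genes come from different probes and are not compared with each other. On probes with 10 spots, the median SD between spots of a probe was 0.05 to 0.06 on the log2 scale, and the median SD between different probes of a gene was 0.28 for the *miR-139-3p* comparison and 0.15 for the *miR-139-5p* comparison. For the 9 members with several probes it was 0.43 in the *miR-139-3p* comparison, with a highest SD of 1.01. All 8 epithelial and A549 marker genes were well above background on each array, and their summed signal was 1776 on the mock, 1623 on the *miR-139-5p* and 911 on the *miR-139-3p* array. The sum is carried by a few bright probes. With *miR-139-3p* 5 of the 8 were below -0.5, while *EPCAM* was at 0.97, *KRT19* at 0.18 and *NQO1* at 0.07. With *miR-139-5p* 3 of the 8 were below -0.5 and 0 above 0.5, with *KRT8* at -0.85, *KRT18* at -0.77 and *KRT19* at -0.52. Of 9 markers of other cell types, *PECAM1* was well above background on 0 arrays, and the 5 genes measured on all of them summed to between 3.32 and 5.82, on the mock and 5p arrays mostly from *CD14*. Of the 6 with a value for *miR-139-3p*, *PTPRC* was at 1.26, *DES* at 1.07 and *VWF* at 1.05, while *CD14* was at -1.98, *SFTPC* at -0.97 and *COL1A1* at -0.61. Of the 5 with a value for *miR-139-5p*, *COL1A1* was at 1.41, *SFTPC* at -0.55 and 3 lay within 0.5 of mock. The part of these markers in the results below was not tested.

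With *miR-139-3p*, nearly the whole kinetochore list was lower than in mock. Of 42 members with a value, 38 had a log2 fold change below -0.5 and 28 were below -1, while *CENPT* alone was above 0.5. Among 12672 protein-coding genes measured on the same arrays, 31.4% were below -0.5, 13.1% below -1 and 20.6% above 0.5. The median of the members was -1.33, beside -0.15 for all of these genes. Of the members analysed, the study picked *SPC24* and *CENPF* partly for lower expression on these arrays, so they are not independent evidence of the direction. Its other criteria included a predicted *miR-139-3p* binding site and higher expression in lung adenocarcinoma tissue. With *miR-139-5p* the list stayed near mock, with a median of 0.06 beside 0.00 for all protein-coding genes. Of 43 members with a value, 0 were below -0.5 and 0 below -1, 7 were above 0.5 and 1, *CENPE*, was above 1. The shares over 12673 protein-coding genes were 11.4% below -0.5, 2.12% below -1, 10.3% above 0.5 and 1.67% above 1. Both comparisons use the same mock array. The 7 members above 0.5 with *miR-139-5p* became 3 with normexp, a model-based background correction, or without scaling and 9 with scaling on the spike-in RNA. The share of all protein-coding genes above 0.5 was then 3.69%, 7.68% and 15.7%, in that order of settings. Of these 7, *NUF2*, *SPDL1* and *CENPF* were within 0.5 of mock with normexp and without scaling, and *SGO2* also under other scalings.

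**Figure D1:**
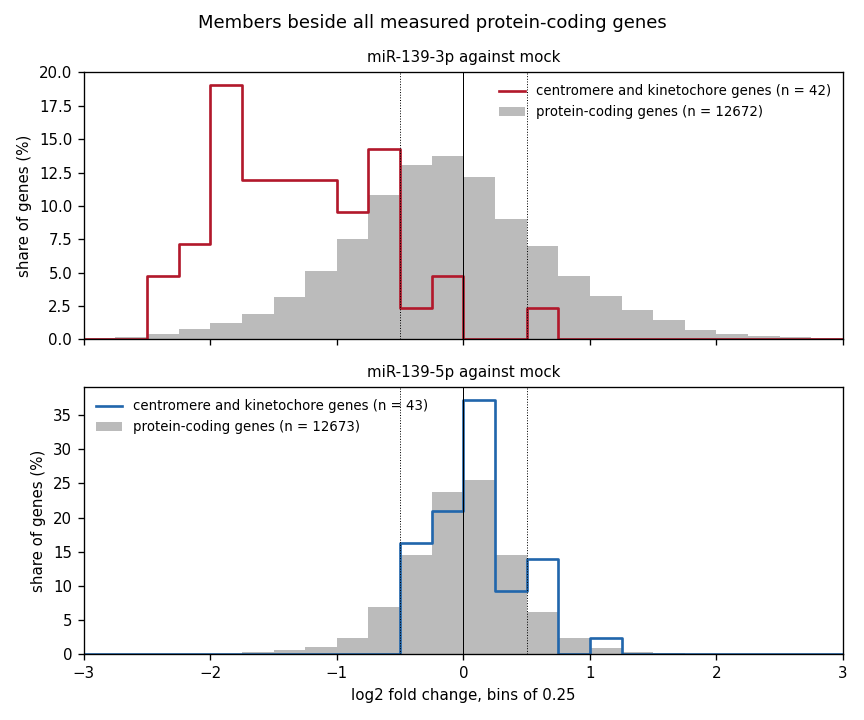
Share of genes in % (vertical axis) by log2 fold change against mock in bins of 0.25 (horizontal axis), for all measured protein-coding genes (grey bars) and the centromere and kinetochore genes (coloured line), with *miR-139-3p* above and *miR-139-5p* below. Dotted lines mark -0.5 and 0.5. With *miR-139-3p* 38 of 42 members lie left of -0.5, and with *miR-139-5p* 36 of 43 lie between the lines.

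The choice of scaling moved the median of all protein-coding genes for *miR-139-3p* from -0.15 to -0.36 without scaling, to -0.35 with scaling on the spike-in RNA and to 0.02 where only probes detected on every array set the percentile. The share of protein-coding genes below -0.5 and above 0.5 was then 42.3% and 14.5%, 41.4% and 14.9%, and 23.7% and 26.3%, in that order. Members below -0.5 numbered 39, 39 and 35 of 42 under these scalings.

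The list is described below by role, from the chromatin of the centromere outwards. All 4 genes of CENP-A and its deposition were lower with *miR-139-3p*, with a median log2 fold change of -1.62. *CENPA*, which codes for the histone variant itself, gave a signal of 4.27 on the mock, 3.95 on the *miR-139-5p* and 1.12 on the *miR-139-3p* array. The fall with *miR-139-3p* was 3.81-fold, a log2 fold change of -1.93. *HJURP*, the chaperone that delivers CENP-A, gave 39.7, 34.4 and 8.93 in the same order, 4.45-fold lower with *miR-139-3p* (log2 fold change -2.15). The Mis18 complex, which marks the centromere for new CENP-A, followed with smaller changes. *MIS18A* gave 6.35, 6.81 and 2.86 on the mock, 5p and 3p arrays (log2 fold change -1.15 with *miR-139-3p*), and *OIP5*, also called Mis18 beta, gave 7.93, 7.53 and 3.19 (-1.31). In each of these 4 genes the mock and *miR-139-5p* signals lay close together, within 0.21 on the log2 scale (with normexp *HJURP* was at -0.37), and the *miR-139-3p* signal lay apart. *CENPB*, which binds the CENP-B box of alpha satellite DNA, was at -0.94 for *miR-139-3p*, with -0.42 for *miR-139-5p*.

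**Figure D2:**
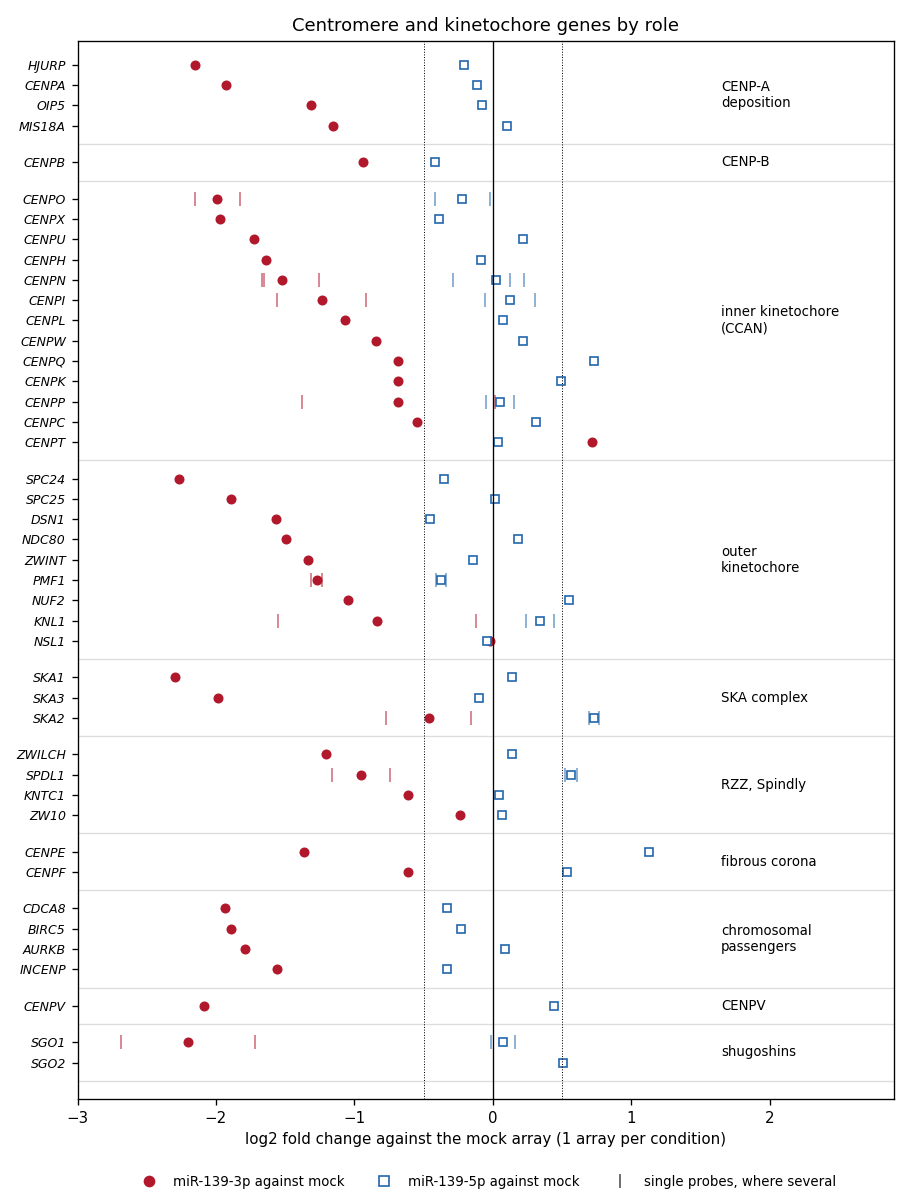
Log2 fold change against mock (horizontal axis) of each measured gene (rows, grouped by role and ordered by the *miR-139-3p* value), for *miR-139-3p* (filled circles) and *miR-139-5p* (open squares), with 1 array per condition. Bars show single probes of genes with several, and dotted lines mark -0.5 and 0.5. *HJURP*, *SPC24* and *SKA1* lie lowest within their groups with *miR-139-3p*, and *CENPE* lies highest with *miR-139-5p* at 1.13.

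In the inner kinetochore, 12 of 13 measured CCAN genes were below -0.5 with *miR-139-3p* and 7 were below -1, with a median of -1.07. *CENPO*, a subunit of the CENP-O/P/Q/U group, gave 3.14 on the mock, 2.69 on the *miR-139-5p* and 0.79 on the *miR-139-3p* array, a 3.97-fold fall with *miR-139-3p* (log2 fold change -1.99). *CENPU*, which belongs to the same group and is a docking partner of the kinase *PLK1*, gave 8.51, 9.89 and 2.58 (-1.72). The other members of the list in this group were less changed with *miR-139-3p*. *CENPQ* was at -0.69 (-0.43 with normexp) and *CENPP* at -0.68. The value of *CENPP* is the mean of probes that disagreed, 1 at -1.38 and the other at 0.01. *CENPX*, a histone-fold protein that also acts with the Fanconi anemia helicase *FANCM*, gave 83.9, 64.0 and 21.5, 3.91-fold lower with *miR-139-3p* (-1.97). *CENPW*, the histone-fold partner of *CENPT*, was at -0.84.

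*CENPT*, which bridges CCAN and the NDC80 complex, was the exception. Its 1 probe gave 0.268 on the mock, 0.274 on the *miR-139-5p* and 0.440 on the *miR-139-3p* array, 1.64-fold higher with *miR-139-3p* (log2 fold change 0.72). This probe was dim, and with normexp the value was 0.28. The measured subunits of the CENP-H/I/K/M group all lay below mock with *miR-139-3p*. *CENPH* gave 2.25, 2.12 and 0.721 on the mock, 5p and 3p arrays (-1.64), and *CENPI*, with its 2 probes averaged, 0.419, 0.457 and 0.178 (-1.24). *CENPK* was at -0.68. The probes of *CENPI* were dim, and with normexp *CENPI* was at -0.36 and *CENPK* at -0.45. *CENPN* and *CENPL* bind the CENP-A nucleosome together. *CENPN*, averaged over 3 probes, gave 3.36, 3.41 and 1.17 (-1.52, with an SD of 0.23 between probes), and *CENPL* gave 0.393, 0.413 and 0.188 (-1.07, but -0.27 with normexp). The large scaffold protein *CENPC*, which contacts CENP-A nucleosomes and the MIS12 complex, was at -0.54, and at -0.28 with normexp. With *miR-139-5p*, 12 of the 13 genes lay within 0.5 of mock, from -0.39 for *CENPX* to 0.49 for *CENPK*, and *CENPQ* was at 0.73.

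The outer kinetochore genes code for the layer that binds microtubules, and 8 of 9 measured were below -0.5 with *miR-139-3p*, with a median of -1.34. The NDC80 complex itself is a rod of 4 subunits. *SPC24*, which the study picked, gave 0.418 on the mock, 0.327 on the *miR-139-5p* and 0.0872 on the *miR-139-3p* array, 4.80-fold lower with *miR-139-3p* (log2 fold change -2.26). Its probe was dim, and with normexp the value was -0.45, no longer below -0.5. The other subunits had brighter probes and moved the same way. *SPC25*, its direct partner at the CCAN end of the rod, gave 6.80, 6.88 and 1.84 (-1.89). *NDC80*, whose globular head binds the microtubule, gave 5.01, 5.68 and 1.78 (-1.50), and *NUF2*, its partner in the head, gave 1.995, 2.93 and 0.969 (-1.04). With *miR-139-5p* the same subunits spread from -0.35 for *SPC24* to 0.55 for *NUF2*.

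The MIS12 complex joins CCAN to *NDC80*, and its subunits were less alike. *DSN1* gave 4.99, 3.64 and 1.69 on the mock, 5p and 3p arrays (-1.56 with *miR-139-3p*). With *miR-139-5p* it was at -0.46, the lowest member under this processing. *PMF1*, averaged over 2 probes that agreed to within an SD of 0.06, gave 16.6, 12.8 and 6.85 (-1.27). *NSL1* did not follow, with 1.36, 1.32 and 1.34 on the same arrays and -0.02 on the log2 scale for *miR-139-3p*. *MIS12* had 1 probe, with an outlier mark on the arrays of mock and of *miR-139-5p*, and therefore no value. With the marked spots kept the values were -0.23 for *miR-139-3p* against 0.11 for *miR-139-5p*. *KNL1*, the scaffold for checkpoint proteins, had a mean of -0.84 over probes at -1.55 and -0.12, the latter with the dimmer signal, and was at -0.51 with normexp. *ZWINT*, which binds *KNL1*, gave 8.34, 7.12 and 3.30 from the probe usable on each array (-1.34).

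The SKA complex helps the kinetochore hold on to shortening microtubules. *SKA1* had the lowest log2 fold change of all members under the main processing, with signals of 1.53 on the mock, 1.68 on the *miR-139-5p* and 0.312 on the *miR-139-3p* array, a 4.92-fold fall with *miR-139-3p* (-2.30). *SKA3* gave 1.40, 1.31 and 0.353 (-1.99). With normexp *SKA1* was at -1.09 and *SKA3* at -1.01, and *HJURP* was the lowest member at -2.23. *SPC24* was lowest with quantile normalization (-2.69) and with the deposited log2 values (-2.70), and *SGO1* where each gene took its lowest probe (-2.69). *SKA2* differed from both, with 1.70, 2.82 and 1.23, or -0.46 for *miR-139-3p* but 0.73 for *miR-139-5p* on the log2 scale. Its probes gave -0.77 and -0.16 with *miR-139-3p*, but 0.76 and 0.69 with *miR-139-5p*.

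The RZZ complex and its adaptor Spindly bring dynein to unattached kinetochores, and their median with *miR-139-3p* was -0.78, with 3 of 4 genes below -0.5. *ZWILCH* gave 4.44 on the mock, 4.90 on the *miR-139-5p* and 1.93 on the *miR-139-3p* array (-1.21). *KNTC1*, the human Rod protein, was at -0.61 and *ZW10* at -0.24. Under quantile normalization *KNTC1* was at -0.44. *SPDL1*, which codes for Spindly, was at -0.95 for *miR-139-3p* (-0.63 with normexp) but at 0.57 for *miR-139-5p*.

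Both genes of the fibrous corona, the outermost mesh of the unattached kinetochore, were lower than mock under *miR-139-3p* yet higher under *miR-139-5p*. *CENPE*, a kinesin that carries chromosomes to the metaphase plate, gave 1.84 on the mock, 4.01 on the *miR-139-5p* and 0.713 on the *miR-139-3p* array. That is 2.58-fold lower for *miR-139-3p* (-1.37) yet 2.18-fold higher for *miR-139-5p* (1.13), the largest rise of any member. *CENPF*, a large corona protein that the study picked, gave 0.915, 1.33 and 0.600, with log2 fold changes of -0.61 and 0.54. This rests on the dimmer of its 2 probes, as the brighter had an outlier mark on the arrays of mock and of *miR-139-5p*. Kept, the brighter probe gave 26.9, 42.6 and 15.8, or -0.77 and 0.66. With normexp the *miR-139-3p* value of *CENPE* was -0.85 and that of *CENPF* -0.30.

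The chromosomal passenger complex corrects wrong attachments from the inner centromere through the kinase Aurora B. Under the main processing its 4 genes had the narrowest span of the groups with several measured genes, from -1.93 to -1.56 with *miR-139-3p*. With normexp they ran from -1.91 for *BIRC5* to -1.25 for *INCENP*, with *AURKB* at -1.28. This was a wider span than that of the fibrous corona genes, at -0.85 and -0.30 with normexp. *BIRC5*, which codes for survivin, gave 70.6 on the mock, 60.2 on the *miR-139-5p* and 19.0 on the *miR-139-3p* array, 3.71-fold lower with *miR-139-3p* (-1.89). *CDCA8*, or borealin, gave 16.5, 13.2 and 4.34 (-1.93), and *AURKB*, the kinase, gave 3.67, 3.90 and 1.06 (-1.79). *INCENP*, the scaffold that activates the kinase, gave 3.94, 3.14 and 1.34 (-1.56). With *miR-139-5p* they lay between -0.33 and 0.09.

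*SGO1*, the shugoshin that protects sister-chromatid cohesion at the centromere, gave 1.23, 1.30 and 0.268 on the mock, 5p and 3p arrays. This was a log2 fold change of -2.20 for *miR-139-3p*, the mean of probes at -1.72 and -2.69, and was -0.90 with normexp. *SGO2* had no value for *miR-139-3p* because its probe had an outlier mark on that array. With the spot kept it was at -1.81, and with *miR-139-5p* it was at 0.51. *CENPV*, a centromere protein needed for chromosome alignment, gave 2.25, 3.06 and 0.530, 4.25-fold lower for *miR-139-3p* (-2.09, and -1.36 with normexp) and at 0.44 for *miR-139-5p*.

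For 6 members the array carried 10 spots of the same probe, which shows how precise a value is within an array. The spots of *BIRC5* ranged from 66.8 to 73.2 on the mock, from 56.4 to 62.8 on the *miR-139-5p* and from 18.0 to 19.9 on the *miR-139-3p* array. The spots of *CENPE* ranged from 1.73 to 1.96 on the mock, from 3.96 to 4.09 on the *miR-139-5p* and from 0.645 to 0.765 on the *miR-139-3p* array. No spot of either gene overlapped between arrays. *CENPQ* lay at 1.22 to 1.36, 2.06 to 2.27 and 0.725 to 0.867 in the same order, again without overlap. *CENPH* and *INCENP* kept the *miR-139-3p* spots apart from the others, at 0.677 to 0.781 against 2.10 to 2.37 on the mock array for *CENPH* and at 1.24 to 1.43 against 3.51 to 4.12 for *INCENP*. The mock and *miR-139-5p* spots overlapped for *CENPH* and *KNTC1*. Those of *INCENP* did not, with 2.96 to 3.41 on the *miR-139-5p* array, although its log2 fold change was only -0.33. Spots can thus lie apart at a difference that does not count as a change here. *KNTC1* lay at 4.75 to 5.34, 4.88 to 5.44 and 3.00 to 3.56, so that its *miR-139-3p* log2 fold change of -0.61 was still outside the spread of spots, with an SE over spots of 0.03. These ranges cover the error within an array and hold no spread between cultures. How many of all probes with 10 spots lie apart between arrays was not counted.

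**Figure D3:**
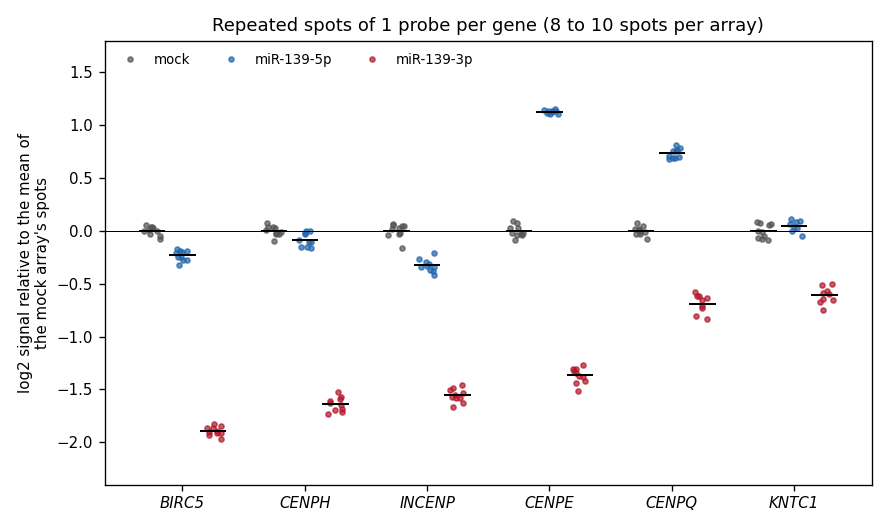
Log2 signal of each spot relative to the mean of the mock array (vertical axis) for 6 genes whose probe was spotted 10 times on each array (8 to 10 spots left after outlier marks), on the mock (grey), *miR-139-5p* (blue) and *miR-139-3p* (red) arrays. Black lines are means. *CENPE* spots sit near 1.13 for *miR-139-5p* but near -1.37 for *miR-139-3p*.

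The 23 partners of the kinetochore, checkpoint and cohesion proteins that are not on the list were mostly lower too. Of 22 measured, 17 were below -0.5 with *miR-139-3p* and 0 above 0.5, with a median of -1.52. The lowest were *KIF2C* at -2.59, a kinesin that depolymerises microtubules at centromeres, *CDC20* at -2.54, the activator of the anaphase-promoting complex, and *TRIP13* at -2.12, the ATPase that disassembles checkpoint complexes. *TRIP13* is the gene the study followed from these arrays. The highest was *BOD1* at 0.41, a protein needed for chromosome biorientation. With *miR-139-5p* the median was -0.11, with 2 below -0.5, *MAD2L1* at -0.85 and *CDC20* at -0.59.

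Genes of the cell cycle outside the kinetochore were mostly lower as well. Of 11 proliferation genes, 8 were below -0.5 with *miR-139-3p*, with a median of -1.43 and with *TOP2A* at -2.29, *MKI67* at -2.23 and *CCNA2* at -1.94 as the lowest and *CCND1* at -0.17 as the highest. Of 15 measured MCM and origin licensing genes, which act in G1 and S phase, 15 were below -0.5, with a median of -1.71. *MCM2* at -2.92, *ORC1* at -2.46 and *GINS2* at -2.30 were the lowest and *GMNN* at -0.90 the highest. The study picked *MCM2*, *ORC1*, *GINS2*, *MKI67* and *TRIP13* partly for lower expression on these arrays, so these are not independent evidence of the direction. With *miR-139-5p* the proliferation genes had a median of 0.09 with 0 of 11 past 0.5 in either direction, and the origin licensing genes a median of -0.13 with 5 of 15 below -0.5. The part of these cell cycle genes in the values of the kinetochore list was not tested.

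**Figure D4:**
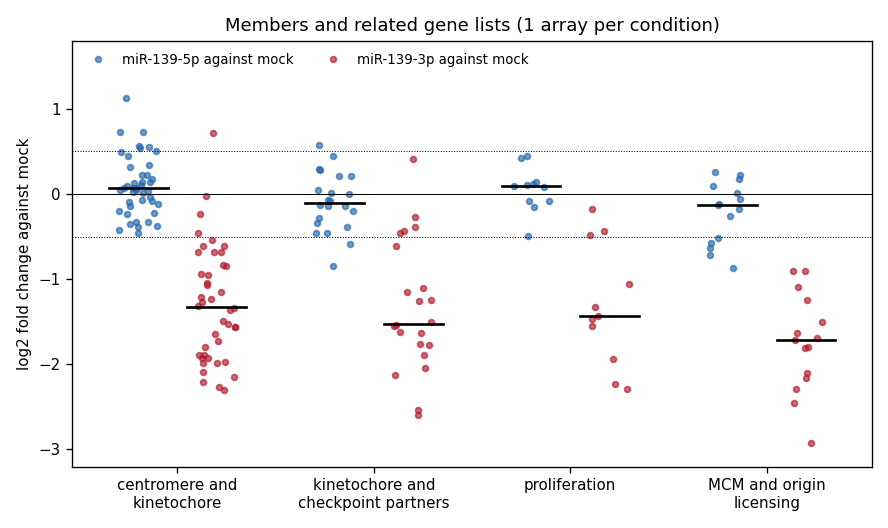
Log2 fold change against mock (vertical axis) of each gene of 4 lists, for *miR-139-5p* (blue) and *miR-139-3p* (red), with medians as black lines and dotted lines at -0.5 and 0.5. The *miR-139-3p* medians are -1.33, -1.52, -1.43 and -1.71 from left to right, and the *miR-139-5p* medians lie between -0.13 and 0.09.

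The promoters of the members were then searched for the elements that are known to time transcription to the cell cycle. The CHR (cell cycle genes homology region) binds the DREAM and MMB complexes, the CCAAT box binds NF-Y, and E2F sites bind E2F factors. RefSeq promoters of assembly GRCh38.p14, running from 250 bases before to 50 after the start site, were listed for 38 of the 45 genes, 6 of them with several start sites. *KNL1*, *CENPL*, *BIRC5*, *MIS18A*, *CENPH*, *CENPM* and *KNTC1* had no entry. The letters searched on both strands were TTTGAA and TTCGAA for CHR, CCAAT for the CCAAT box, and TTTGGCGC, TTTCGCGC, TTCCCGCC and TTGGCGGG for E2F-like sites, and these words may overlap each other in a promoter. A CHR word occurred in 19 of the 38 genes (50%), against 15.6% of 10355 measured protein-coding genes with a promoter entry. A CCAAT box occurred in 26 genes (68.4%, against 43.0%), an E2F-like word in 12 genes (31.6%, against 10.5%), and CHR together with CCAAT in 14 genes (36.8%, against 8.50%). Over all 35116 listed promoters the shares were 16.4% for CHR, 34.6% for CCAAT and 5.28% for the E2F-like words.

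Within the list, the *miR-139-3p* log2 fold change had a median of -1.52 in 19 members with a CHR word and -1.24 in 17 without. For the CCAAT box it was -1.33 in 24 members with and -1.43 in 12 without, and for the E2F-like words -1.52 in 11 with and -1.24 in 25 without. None of these differences was tested, and a match of letters is a description, not a binding site. Among all measured protein-coding genes, the medians were -0.22 with and -0.16 without a CHR word, -0.20 with and -0.13 without a CCAAT box, and -0.32 with and -0.15 without an E2F-like word.

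**Figure D5:**
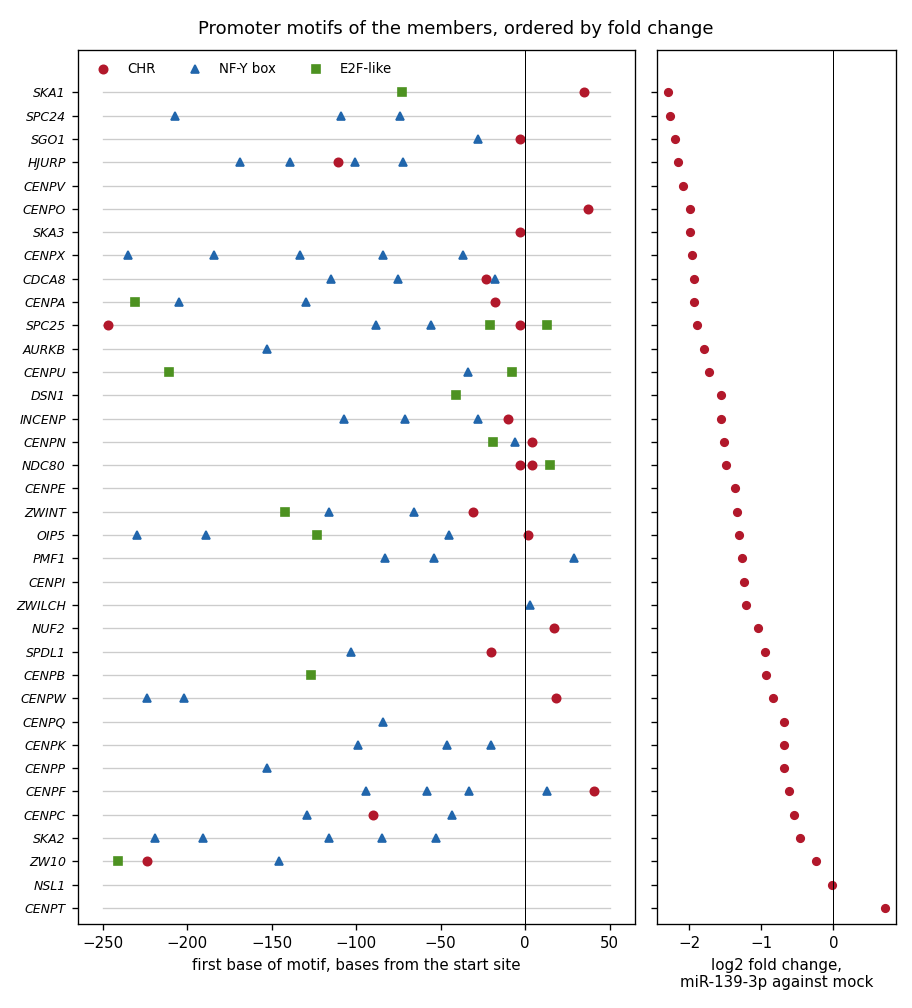
Positions of CHR (circles), CCAAT box (NF-Y box, triangles) and E2F-like words (squares) in bases from the start site (left, horizontal axis) for the 36 members with a promoter entry and a *miR-139-3p* value, ordered by log2 fold change against mock (right). Where a gene had several promoters, that of the lowest coordinate holding a word is drawn. *CENPV*, *CENPE*, *CENPI*, *NSL1* and *CENPT* hold none of the words.

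The promoters of 6 members are printed with the words found in capitals, for genes low with *miR-139-3p* that hold CHR or CCAAT words and for genes with neither. *HJURP* (chr2:233854486-233854785, minus strand) holds a CHR word at -111 from the start site among 4 CCAAT boxes between -169 and -72. *SKA1* (chr18:50374796-50375095, plus strand) holds an E2F-like word at -73 and a CHR word at 35. *CENPA* (chr2:26785806-26786105, plus strand) holds an E2F-like word at -231, CCAAT boxes at -205 and -130 and a CHR word at -18. *SPC24* (chr19:11155733-11156032, minus strand) holds CCAAT boxes at -207, -109 and -74.
HJURP: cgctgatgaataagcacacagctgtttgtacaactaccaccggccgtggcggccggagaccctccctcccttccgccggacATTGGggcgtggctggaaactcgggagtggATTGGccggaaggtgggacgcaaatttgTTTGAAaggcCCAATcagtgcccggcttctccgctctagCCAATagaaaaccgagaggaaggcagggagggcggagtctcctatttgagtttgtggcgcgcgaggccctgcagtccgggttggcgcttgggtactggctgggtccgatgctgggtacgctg
SKA1: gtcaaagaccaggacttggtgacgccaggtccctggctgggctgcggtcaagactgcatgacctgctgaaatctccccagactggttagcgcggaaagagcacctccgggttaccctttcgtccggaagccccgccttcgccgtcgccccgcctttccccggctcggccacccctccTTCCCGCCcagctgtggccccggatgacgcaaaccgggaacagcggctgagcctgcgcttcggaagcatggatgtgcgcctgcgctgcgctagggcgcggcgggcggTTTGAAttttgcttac
CENPA: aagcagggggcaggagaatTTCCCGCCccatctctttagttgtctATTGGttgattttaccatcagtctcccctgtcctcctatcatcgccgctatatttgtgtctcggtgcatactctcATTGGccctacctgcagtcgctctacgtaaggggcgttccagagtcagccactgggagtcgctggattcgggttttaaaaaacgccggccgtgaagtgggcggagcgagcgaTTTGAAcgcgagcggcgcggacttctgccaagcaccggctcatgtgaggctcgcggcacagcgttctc
SPC24: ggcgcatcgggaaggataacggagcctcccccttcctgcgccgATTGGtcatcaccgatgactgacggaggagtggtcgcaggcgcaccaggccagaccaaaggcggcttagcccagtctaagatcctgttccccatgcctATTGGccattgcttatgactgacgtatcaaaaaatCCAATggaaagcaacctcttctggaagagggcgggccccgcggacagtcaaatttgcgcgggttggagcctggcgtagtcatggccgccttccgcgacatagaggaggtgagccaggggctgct
*CENPE* (chr4:103198294-103198593, minus strand), the member most raised with *miR-139-5p*, and *CENPT* (chr16:67847644-67847943, minus strand), the member above mock with *miR-139-3p*, hold none of the words searched. With *miR-139-3p*, the members that hold none were at -2.09 for *CENPV*, -1.37 for *CENPE*, -1.24 for *CENPI*, -0.02 for *NSL1* and 0.72 for *CENPT*.
CENPE: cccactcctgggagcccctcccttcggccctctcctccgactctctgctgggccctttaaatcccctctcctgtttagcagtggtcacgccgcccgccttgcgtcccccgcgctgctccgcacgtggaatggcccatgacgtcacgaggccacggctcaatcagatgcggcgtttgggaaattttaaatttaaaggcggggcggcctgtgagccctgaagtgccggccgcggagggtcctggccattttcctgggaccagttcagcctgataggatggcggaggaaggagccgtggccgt
CENPT: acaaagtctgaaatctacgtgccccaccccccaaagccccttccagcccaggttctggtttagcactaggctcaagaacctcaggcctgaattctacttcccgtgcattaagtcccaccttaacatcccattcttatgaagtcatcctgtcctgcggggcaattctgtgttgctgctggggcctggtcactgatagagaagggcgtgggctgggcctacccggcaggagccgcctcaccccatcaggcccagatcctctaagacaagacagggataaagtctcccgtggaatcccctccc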

How the data were processed

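The authors deposited spot intensities from Agilent Feature Extraction 12.1.1.1, with background subtracted and no normalization between arrays. The authors also deposited log2 values per probe, which were the quantile-normalized log2 signals of these arrays. From the intensities, log2 signal minus the log2 75th percentile of the array was computed. Spots marked as outliers were left out, spots of a probe averaged, and a probe counted as measured where at least 50% of its spots were well above background on both arrays compared. A gene took the mean over its measured probes. Genes were named through RefSeq accessions (GRCh38.p14), which matched 24751 of 25277 probes with an NM accession. No probe coordinate is given, as the array was designed on an earlier build.

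The threshold of 0.5 on the log2 scale and the gene lists were chosen with earlier results of these data known. Genes were named with all signals where a log2 fold change passed 1 in either direction or the study had picked them. For related lists the 3 lowest genes and the highest were named, and a few further genes were named after their values were seen. Some genes of the related lists are not reported here. Precision is limited by having 1 array per condition, and no test was made. The alternatives changed background correction, scaling, filter, choice of probe, outlier spots, threshold, reference and the values used. The steps were tested on simulated data. Python 3.11.15 (numpy 2.4.6, pandas 2.3.3, matplotlib 3.10.9) and R 4.3.3 with limma 3.58.1 (normexp, offset 50, on median signal) were used.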

Additional observations from a re-analysis of the deposited data

How the results depend on the processing

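For *miR-139-3p*, the number of members below -0.5 ranged from 31 to 39 over 10 alternatives to the processing at that threshold and a change of reference to the *miR-139-5p* array, and 30 of the 38 were below -0.5 in all 10 alternatives against mock. The 31 came from normexp, where 22.5% of all protein-coding genes were below -0.5 and 9.07% above 0.5. The members with a value were 42, or 44 with outlier spots kept (39 below -0.5) and with the deposited values (38). The others of the 38 were *CENPC*, *CENPI*, *CENPK*, *CENPL*, *CENPQ*, *SPC24*, *KNTC1* and *CENPF*, of which all but *KNTC1* were above -0.5 with normexp. The median was -0.95 with normexp and between -1.53 and -1.16 otherwise. The cause was not tested beyond the construction of normexp, whose offset of 50 shrinks differences of dim probes. The member above 0.5, *CENPT*, was lost with normexp, quantile normalization, the deposited log2 values and a threshold of 1 (0 members each). For *miR-139-5p*, members above 0.5 numbered 3 with normexp, 3 without scaling, 1 at a threshold of 1 and 9 with scaling on spike-in RNA, instead of 7, and *CENPQ*, *SKA2* and *CENPE* were above 0.5 in all 10 alternatives. Without scaling 1 member was below -0.5. No called value of a member changed sign. No paired analysis was possible because each condition had 1 array. Dim probes, such as those of *SPC24* and *CENPT*, limit what these signals show, and leaving out an array was not possible.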
